A study of Mus musculus with 16 samples.

Results

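Mouse blastocysts that had been injected as zygotes with small RNA from the sperm of males fed either a normal diet (ND) or one high in fat (HFD) gave 2 of the 16 samples of the series, 1 library per diet. They were chosen by their labels, and gene levels in the HFD library were compared with those in the ND library. The sperm donors were C57BL/6J males, bought at 5 weeks of age and then assigned at random to a diet. Their sperm RNA of 30 to 40 nt was microinjected at 2 ng/µl into fertilised eggs of the ICR stock, taken from superovulated females of 6 weeks. Both groups were cultured alike at 37 °C in 5% CO2, had the zona pellucida removed with acid and were collected as late blastocysts about 75 h after injection. Each library was made with the Smart-Seq2 method from 1 pool of 5 embryos. HFD and ND therefore name the diet of the RNA donors. Blastocysts injected with water, which the labels mention as a control, were not analysed here. With 1 pool per group there were no biological replicates, so every difference below is a size with no test, and pool, embryo batch and injected RNA cannot be told apart.

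A blastocyst is the embryo just before implantation. Its outer epithelium, the trophectoderm, pumps fluid into the cavity and later forms the placenta, while the inner cell mass splits into epiblast, the source of the fetus, and primitive endoderm. Fragments of transfer RNA are abundant in mature sperm in this size class, and the series asked whether such RNA carries a metabolic effect of the father's diet to the embryo.

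Levels are given as deposited, in FPKM, which divides the fragments of a gene by transcript length and library depth, with ND before HFD. Differences are of log2(FPKM + 1), HFD minus ND, after scaling by the median HFD/ND ratio of 0.877. The HFD values were divided, and the ND values multiplied, by the square root of that ratio. Before that scaling the median gene stood at -0.18. The pseudocount of 1 understates the difference of low genes. FPKM above 0 was listed for 14177 genes in ND and 14521 in HFD, and the 10 most abundant genes held 10.7% and 11.7% of all FPKM. Read depth is unknown, since low values showed no step that 1 read would leave, and no interval can be given.

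Of 23966 genes used, 4134 had a mean level over the libraries that reached 10 FPKM and are called measured. Of these, 102 (2.47%) were higher in HFD by at least 1 on the log2 scale and 101 (2.44%) were lower. Without scaling the split was 53 (1.28%) higher and 203 (4.91%) lower. At a difference of 1.5-fold, 485 (11.7%) were higher and 490 (11.9%) lower after scaling. The standard deviation of the difference over genes was 0.53. Just inside the threshold stood Dpp3, a peptidase gene, at 7.26 and 13.7 FPKM (1.00), and Dppa2, a pluripotency-associated gene, at 386 and 168 FPKM (just below -1). Just outside stood Tmem14c at 22.5 and 40.2 FPKM (0.99) and Folr1, a folate receptor gene, at 384 and 169 FPKM (-0.99).

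**Figure D1:**
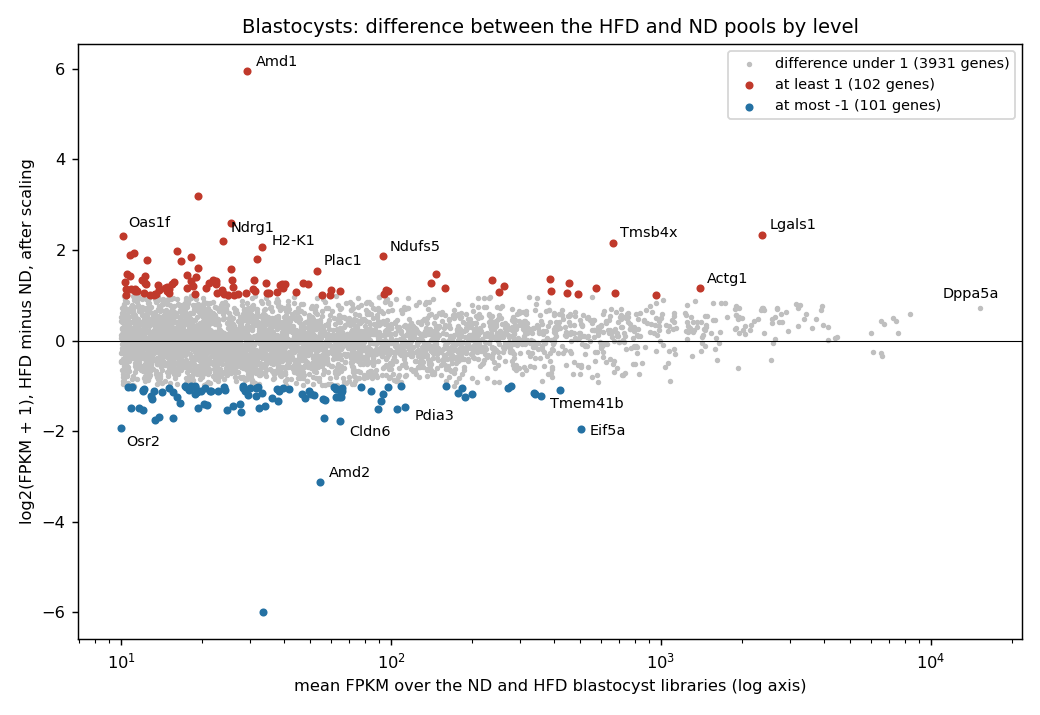
Each point is 1 of 4134 measured genes, with the mean FPKM of the 2 blastocyst libraries on a log axis and the scaled log2 difference, HFD minus ND, on the vertical axis. Red points are the 102 genes at 1 or above and blue points the 101 genes at -1 or below; Lgals1, Actg1 and Tmsb4x are among the red points at high level and Eif5a among the blue ones.

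Differences were not spread evenly over levels. In the 414 most abundant genes, those with a mean of 312 FPKM or more, the median difference was 0.24, while the medians of the other 9 deciles lay between -0.08 and 0.05. The decile with the shortest loci, up to 3377 bp, had a median of 0.16. The longest loci, from 72060 bp on, had 0.11, and the deciles between lay from -0.11 to 0.05. Many genes of respiration and the ribosome are both abundant and short, and the part of level and length in their differences was not tested. Genes on the X chromosome had a median of -0.02 (145 genes) against 0.00 on the autosomes (3987 genes).

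Markers of the labelled embryo stage were present in both pools, and markers of other cells were near 0. The 11 trophectoderm markers summed to 2704 FPKM in ND and 3003 in HFD, against 72.9 and 71.7 in 8-cell embryos of the same series. All 11 reached 1 FPKM in a blastocyst library, and 9 of 11 were higher in HFD as deposited. The 8 epiblast markers summed to 305 and 227 FPKM, with 4 of 8 higher in HFD. The 7 primitive endoderm markers summed to 104 FPKM in each library, but Sox17 and Sox7 were listed at 0 in ND. Of the 9 cumulus and granulosa markers, 7 were at 0 in ND and 8 in HFD, and the sums were 0.307 and 0.381 FPKM. Sperm markers summed to 1.10 and 2.95 FPKM over 7 genes, with Smcp, Akap4 and Tnp1 at 0 in both. Oocyte markers summed to 3.99 and 2.70 FPKM over 8 genes, blood markers to 6.55 and 4.89 over 5 genes and fibroblast markers to 0.514 and 0.222 over 6 genes. Xist, the RNA that silences 1 X chromosome in female cells, stood at 6.40 and 5.11 FPKM, and the Y-linked Eif2s3y at 15.1 and 20.8, so each pool held RNA of male embryos. The balance of the sexes in the pools was not tested.

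The trophectoderm programme stood slightly higher in the HFD pool, with exceptions among its transcription factors. Of 13 measured genes in the wider list, 10 lay above 0, where 50% of all measured genes did, and the median was 0.28 (0.10 without scaling). Plac1, a placenta-specific gene, had 29.3 FPKM in ND and 76.9 in HFD (1.55). Tspan8, which encodes a tetraspanin of epithelial surfaces, had 176 and 326 (1.07). Fabp3, a fatty acid carrier, had 3257 and 4584 (0.68). The keratin genes Krt8 and Krt18, whose products form the filaments of the epithelium, had 784 and 945 FPKM (0.46) and 1826 and 1952 FPKM (0.28). Among regulators, Gata3 had 35.0 and 29.8 FPKM (-0.04) and Tfap2c 27.9 and 25.6 (0.06). The low-level factors Cdx2 (4.07 and 6.17), Eomes (3.16 and 5.21) and Gata2 (0.813 and 5.25) were all listed higher in HFD. In a bulk pool, more cells of a lineage and more RNA per cell cannot be told apart.

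The epiblast list was mixed. Of 15 measured genes 7 lay above 0, with a median of -0.06, or 0.048 over 28 genes with no filter on level. Nanog, a core pluripotency factor, had 73.8 FPKM in ND and 34.6 in HFD (-0.89). Pou5f1, which encodes Oct4, had 25.1 and 11.7 (-0.86). Sall4, a zinc finger factor of the same network, stood lower by a similar size (-0.67), at 215 and 118 FPKM. Other genes of the list lay on the higher side. Dppa5a was the most abundant gene measured, at 12428 and 17837 FPKM (0.71). L1td1 had 21.1 and 34.8 FPKM (0.87), and Spp1, which encodes osteopontin, 183 and 268 (0.74). Sox2 and Fgf4, both at low level, were listed at 3.75 and 7.12 FPKM and at 2.45 and 5.92 FPKM. The inner cell mass genes thus held values on both sides within the same pair of libraries. In the primitive endoderm, Dab2 had 53.5 and 60.2 FPKM (0.35), Gata6 47.3 and 38.6 (-0.10) and the laminin gene Lamb1 14.9 and 22.8 (0.76).

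**Figure D2:**
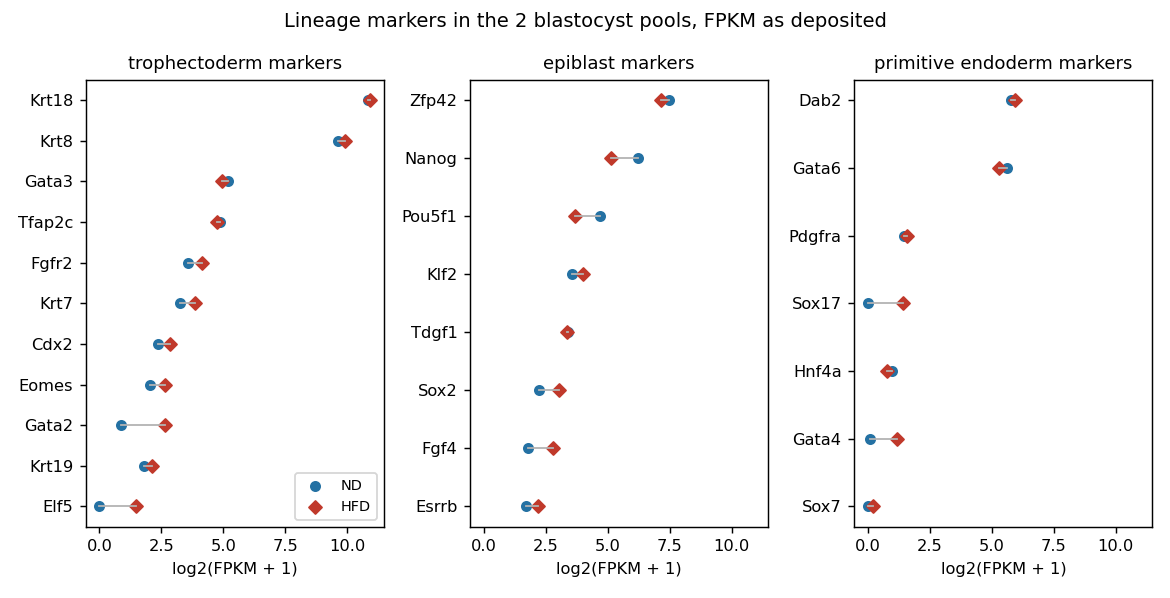
Levels of lineage markers as log2(FPKM + 1) in the ND (blue circles) and HFD (red diamonds) blastocyst libraries, 1 library each, with no scaling. Most trophectoderm markers have the HFD point to the right, while Nanog and Pou5f1 have it to the left.

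Enzymes of cholesterol synthesis were mostly lower in the HFD blastocysts, and the steps differed in size. The pathway runs from acetyl-CoA through mevalonate and squalene to cholesterol, and its genes are known to be driven together by SREBP2 when cells lack sterol. Of 16 measured genes 14 lay below 0, with a median of -0.50 (-0.68 without scaling), against 50% below 0 among all measured genes. The first enzyme drawn, the acetoacetyl-CoA thiolase of Acat2, had 142 FPKM in ND and 66.3 in HFD (-0.90). The mevalonate steps described here lay near 0 or above it. Hmgcs1, a synthase early in the pathway, had 32.9 and 30.9 FPKM (0.10), and Pmvk, a kinase, 136 and 118 (-0.02). Mvk, mevalonate kinase, was the highest of the list at 11.1 and 13.7 FPKM (0.45). Lower values followed from the isoprenoid steps onward. Idi1, the isomerase of isopentenyl diphosphate, had 76.7 and 33.8 FPKM (-0.97), and Fdps, which makes farnesyl diphosphate, 353 and 213 (-0.54). Fdft1, squalene synthase, had 82.6 and 29.3 FPKM (-1.28), while Sqle, the next enzyme, had 41.7 and 31.8 (-0.20). Of the enzymes that trim lanosterol, Cyp51 had 23.9 and 8.25 FPKM (-1.25), Msmo1 65.6 and 28.6 (-0.98) and Sc5d 18.7 and 9.13 (-0.78). Ebp and Nsdhl, which act in the same stretch, had 106 and 65.5 FPKM (-0.50) and 24.9 and 15.2 FPKM (-0.49). Thus 2 of 16 passed the threshold of -1, where 2.44% of all measured genes did, and no gene of the list reached 1.

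**Figure D3:**
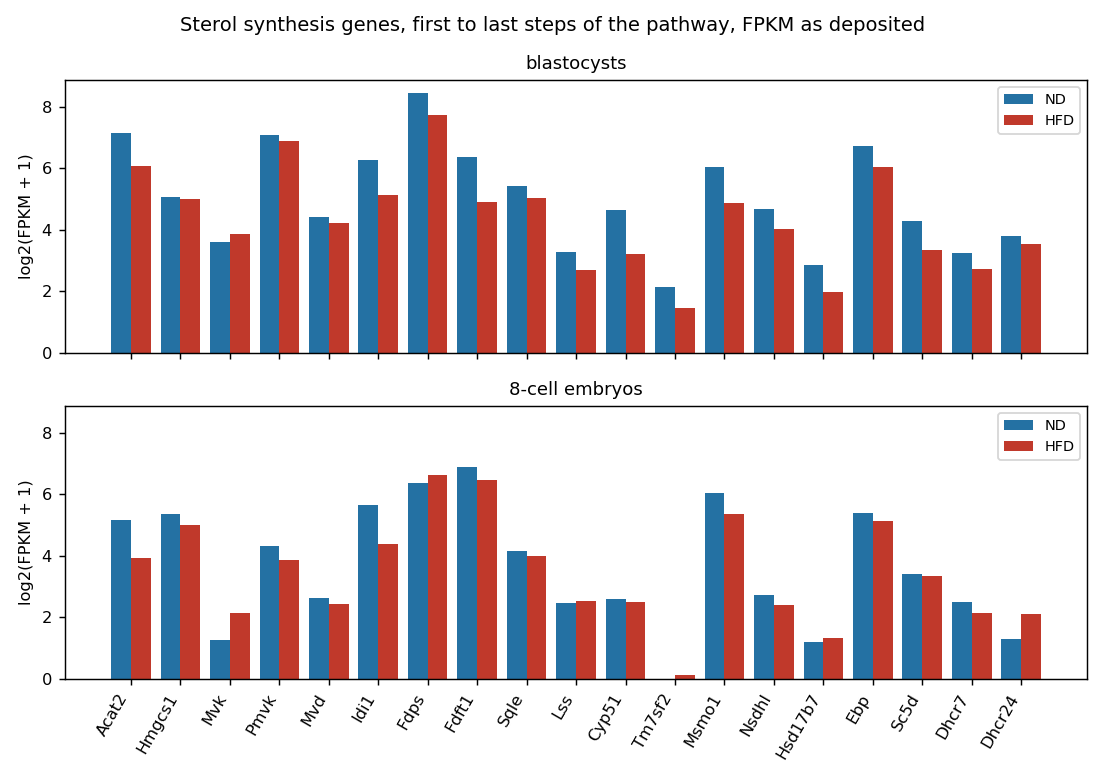
Levels of sterol synthesis genes as log2(FPKM + 1), ordered from the first to the last steps, in ND (blue) and HFD (red) libraries of blastocysts (top) and 8-cell embryos (bottom), 1 library each and no scaling. In blastocysts the HFD bar is the shorter one for all genes drawn except Mvk.

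In 8-cell embryos, which were other embryos injected with the same kinds of RNA and collected about 56 h after injection, 6 of 10 measured genes of this list lay below 0, with a median of -0.06. The same 10 genes had a median of -0.52 in blastocysts. Idi1 and Acat2 were low at both stages, at -0.93 each in 8-cell embryos. Fdps went the other way there, with 82.4 and 97.2 FPKM (0.57). The difference between the stages was not tested.

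Genes that control sterol supply gave a less stable picture. Of 6 measured genes of uptake, transport and SREBP control, 5 lay below 0, with a median of -0.47, but with genes from 5 FPKM on included (11 genes) the median was 0.13. Insig1, which holds SREBP in the endoplasmic reticulum and is itself a target of it, had 85.4 and 48.8 FPKM (-0.61). Stard4, a cholesterol carrier, had 19.2 and 7.25 (-1.12), and Npc2, which exports cholesterol from lysosomes, 239 and 133 (-0.65). In 8-cell embryos Insig1 stood the other way, at 5.76 and 19.6 FPKM (1.91), while 2 of 3 measured genes of the list lay below 0. Fatty acid genes did not share the lower values in blastocysts. Of 13 measured genes of fatty acid synthesis and storage 8 lay above 0 (median 0.06, or -0.13 without scaling). Within them Thrsp, a lipogenic nuclear protein, had 25.0 and 6.07 FPKM (-1.71), and the acyltransferase gene Agpat2 had 56.4 and 86.8 (0.80).

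Promoters are printed for 3 of the sterol genes with the lower values, since the genes of the list stood low together. Each run holds the 250 bases before the annotated start in RefSeq on GRCm38.p6, 5′ to 3′ on the strand of the gene, with each CCAAT box in capitals (ATTGG where it lies on the opposite strand). CCAAT is the site of the factor NF-Y, which is known to work beside SREBP at sterol gene promoters.
Cyp51, chr5:4104698-4104947, minus strand: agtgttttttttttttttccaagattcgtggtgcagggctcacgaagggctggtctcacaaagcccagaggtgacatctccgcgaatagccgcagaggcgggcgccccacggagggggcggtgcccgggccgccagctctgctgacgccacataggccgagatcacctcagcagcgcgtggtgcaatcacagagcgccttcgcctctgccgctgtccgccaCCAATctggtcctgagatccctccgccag
Idi1, chr13:8885356-8885605, plus strand: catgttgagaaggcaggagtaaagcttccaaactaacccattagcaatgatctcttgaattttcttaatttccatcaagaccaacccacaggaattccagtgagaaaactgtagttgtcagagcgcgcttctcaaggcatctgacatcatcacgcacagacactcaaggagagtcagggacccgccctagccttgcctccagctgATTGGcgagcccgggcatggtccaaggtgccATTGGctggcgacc
Msmo1, chr8:64733579-64733828, minus strand: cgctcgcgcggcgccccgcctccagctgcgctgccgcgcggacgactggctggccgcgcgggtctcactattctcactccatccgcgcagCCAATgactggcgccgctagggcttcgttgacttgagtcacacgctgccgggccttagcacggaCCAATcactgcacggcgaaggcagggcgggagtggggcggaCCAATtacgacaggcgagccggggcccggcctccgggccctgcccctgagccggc
The boxes lay singly in Cyp51, in a pair in Idi1 and in a group of 3 in Msmo1. In windows of 300 bases (250 before to 50 after the start, both strands), CCAAT was found in 10 of the 11 sterol synthesis genes with an entry (90.9%), in 45.3% of the 3194 measured genes with an entry and in 41.1% of all 27025 genes with one. The sterol regulatory element searched as TCACNCCAC was found in 1 of the 11, Hmgcs1, and in 1.44% of all genes. The GC box GGGCGG was found in 10 of 11, and in 68.8% of measured genes. CCAAT was present in 55.8% of the 77 lower genes with an entry and in 34.5% of the 87 higher ones. The GC box was present in 68.8% of the lower and 65.5% of the higher genes, and the sterol regulatory element in 0 of either. None of these contrasts was tested. A match describes the letters only, and no binding was measured.

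Chaperones and sensors of the endoplasmic reticulum (ER) formed another list on the lower side. The unfolded protein response raises these genes when secretory proteins fail to fold. Of 21 measured genes 18 lay below 0, with a median of -0.47 (-0.66 without scaling). Pdia3, a disulfide isomerase for glycoproteins, had 172 FPKM in ND and 53.7 in HFD (-1.47). Derl2, part of the channel that removes misfolded proteins, had 39.9 and 16.9 (-1.01). The cochaperone genes Dnajb9 and Sdf2l1 had 31.3 and 14.4 FPKM (-0.89) and 61.0 and 29.6 FPKM (-0.83). Xbp1, a transcription factor of the response, had 41.7 and 22.5 (-0.68). The most abundant chaperones differed less. Hspa5 (BiP) had 253 and 188 FPKM (-0.24), Calr (calreticulin) 206 and 139 (-0.38), Canx (calnexin) 175 and 130 (-0.25) and Hsp90b1 205 and 203 (0.18). Erp29 was the highest of the list at 54.8 and 61.6 (0.35). In 8-cell embryos 12 of 19 measured genes lay below 0, with a median of -0.04.

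The entry machinery of the ER, read from 23 measured genes, lay nearer to the median gene, with 14 below 0 and a median of -0.09. Ddost, an oligosaccharyltransferase subunit, was its lowest at 61.6 and 30.1 FPKM (-0.82), and Sec61g, a subunit of the translocation channel, its highest at 321 and 450 (0.67). Serine synthesis genes under ATF4, a factor of another arm of the stress response, included Phgdh at 55.0 and 21.7 FPKM (-1.12) and Psat1 at 203 and 104 (-0.77). Their list of 9 had a median of -0.06. Atf4 itself stood at 53.3 and 40.1 (-0.22), and Ddit3 (CHOP), a target of this arm, at 66.9 and 81.2 (0.46).

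The ER stress element, CCAAT and CCACG set 9 bases apart and searched as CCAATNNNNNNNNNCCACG on both strands, was found in 7 of the 18 ER list genes with a promoter entry. It was found in 0.376% of measured genes and in 0.137% of all genes. Of the genes past the threshold with an entry, 0 of 77 lower and 0 of 87 higher ones held it. The share in the list describes reference sequence and does not bear on the difference between the pools. Every match to the ER stress element also counts as a CCAAT box, which 16 of the 18 held. The sites are shown because they mark which list members carry the element. Both parts of the element are in capitals, as read on the strand of the gene, and positions count from the base before the start, at -1.
Hspa5, chr2:34772019-34772048, plus strand, -71 to -42: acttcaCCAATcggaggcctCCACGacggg
Pdia6, chr12:17266485-17266514, plus strand, -104 to -75: cagagaCCAATgaaaggcggCCACGgcgtg
Canx, chr11:50325795-50325824, minus strand, -151 to -122: tattgaCCAATcaccacgctCCACGaagaa
Dnajc3, chr14:118937821-118937850, plus strand, -111 to -82: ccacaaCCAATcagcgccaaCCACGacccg
Hsp90b1, chr10:86705633-86705662, minus strand, -218 to -189: acaagcCCAATcgcaaggagCCACGcttcg
Calr, chr8:84847070-84847099, minus strand, -168 to -139: acaacgCGTGGtcgaccctcATTGGcccat
Creld2, chr15:88819514-88819543, plus strand, -132 to -103: gcttctCGTGGcgagcctcaATTGGtccac
A further site of Hsp90b1 in the reverse orientation, at -113 to -84, is not printed. Calr and Creld2 carry the element in reverse. Pdia3, the lowest of the list, was not among the 7, and Hsp90b1, which holds the element in both orientations, lay above 0.

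Nuclear genes of the respiratory chain were higher in the HFD blastocysts, and within complex I the accessory subunits had the higher median. That difference between subunits was not tested. Complex I passes electrons from NADH to ubiquinone, and its core subunits carry the redox chemistry. All 37 genes of the list were measured, and 32 lay above 0, with a median of 0.56 (0.37 without scaling). The 30 accessory genes had 28 above 0 and a median of 0.58. The 7 core genes had 4 above and 3 below, with a median of 0.02. Median levels differed too, at 482 FPKM for accessory and 84.5 for core genes, and the part of level was not tested. Ndufs5 was the highest at 43.9 FPKM in ND and 142 in HFD (1.86). Ndufs4 had 65.3 and 126 (1.12), Ndufv3 319 and 578 (1.04) and Ndufa6 691 and 1222 (1.01). These 4 of 37 passed 1, where 2.47% of measured genes did. The core flavoprotein gene Ndufv1 was the lowest, at 55.7 and 26.8 (-0.84).

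Complexes II to IV had 19 of 25 genes above 0 (median 0.41), and ATP synthase had 13 of 16 (median 0.56). Cox7a2, a cytochrome oxidase subunit, had 746 and 1163 FPKM (0.83), and Cox5a 3047 and 3705 (0.47). Atp5g3, one of the genes for the rotor ring of ATP synthase, had 353 and 636 (1.03). The more abundant Atp5g1, another of them, had 2413 and 3175 (0.58). On the other side Uqcrc1, a core protein of complex III, had 798 and 369 (-0.92). Atp5d had 88.4 and 62.4 (-0.31), at a locus that overlaps other listed genes. Over all 78 genes of these lists, 64 lay above 0, with a median of 0.49 in blastocysts and 0.16 in 8-cell embryos. Transcripts encoded by mitochondrial DNA were not analysed here.

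Other fuel pathways did not follow as a block. The tricarboxylic acid cycle and pyruvate dehydrogenase had 10 of 19 genes above 0 and a median of 0.00. Pdhx, a binding protein of pyruvate dehydrogenase, was lowest at 24.2 and 10.7 FPKM (-0.93), and citrate synthase (Cs) highest at 32.5 and 47.5 (0.72). Fatty acid oxidation had 8 of 14 above 0 (median 0.10, or -0.09 without scaling). Acadm, a dehydrogenase of this pathway, had 224 and 264 FPKM (0.42) in blastocysts but 283 and 149 (-0.59) in 8-cell embryos, where 8 of 9 genes of the list lay below 0. In glycolysis 9 of 10 genes lay above 0 (median 0.47), although with no filter on level the median of 20 genes was 0.03. Gapdh had 259 and 438 FPKM (0.94), Pgk1 60.6 and 90.1 (0.75), Aldoa 335 and 299 (0.02) and Pgam1 97.6 and 64.7 (-0.40). Ndrg1, a hypoxia-responsive gene, had 8.79 and 38.9 (2.20). Bnip3, another gene of that list, had 619 and 326 (-0.74).

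**Figure D4:**
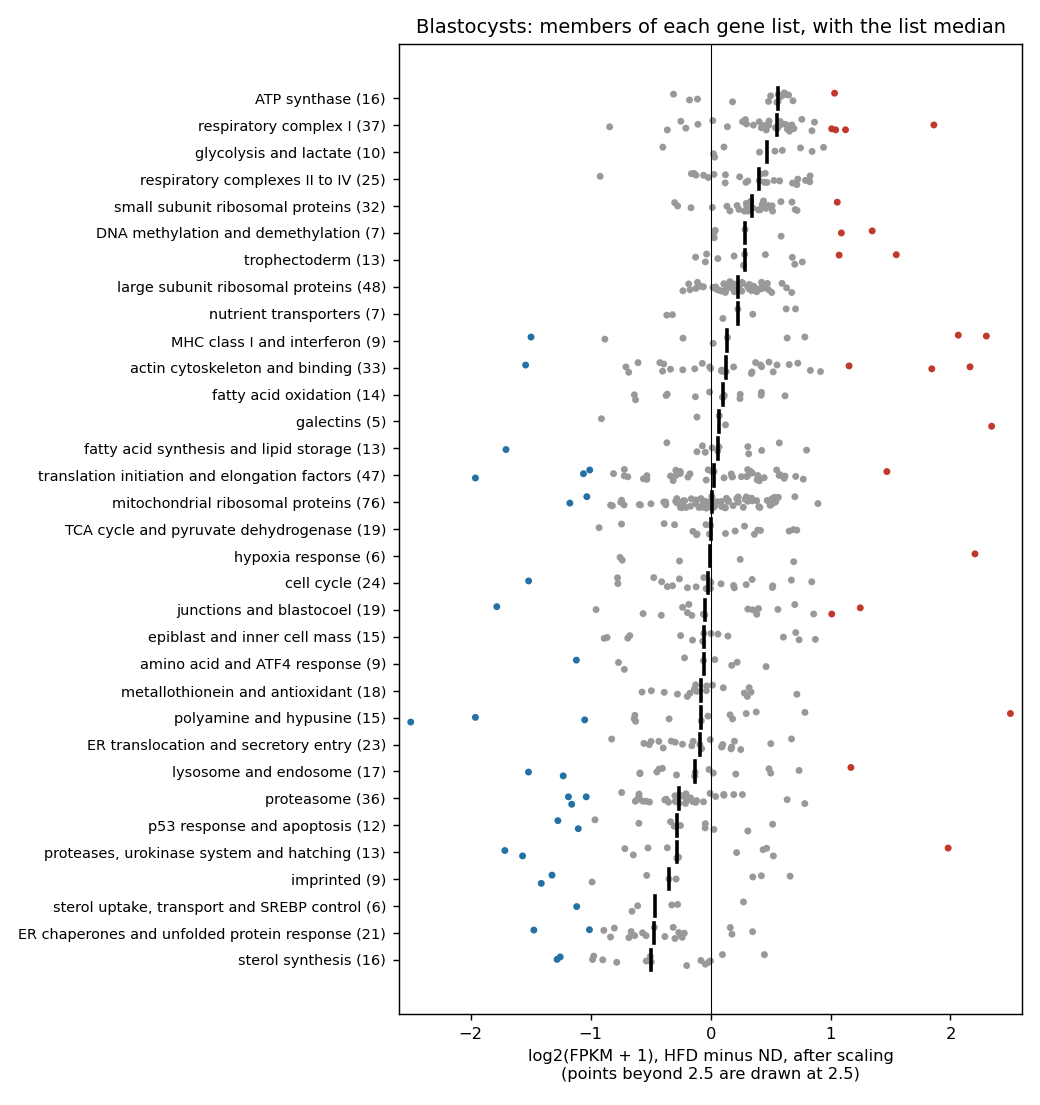
Scaled log2 differences, HFD minus ND, of the measured members of each gene list with 5 or more of them (number in brackets), with a black bar at the list median. Red points lie at 1 or above and blue points at -1 or below. ATP synthase and complex I have the highest medians and sterol synthesis the lowest.

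The cytosolic ribosome stood above the median gene, and the mitochondrial ribosome at it. Their levels differed too, with medians of 1077 (small subunit), 903 (large subunit) and 107 FPKM (mitochondrial). Among all measured genes, the decile from 312 FPKM on had a median difference of 0.24. The decile from 76.8 to 140 FPKM had -0.05, and the part of level was not tested. The 32 small subunit genes had 29 above 0 (median 0.34), and the 48 large subunit genes had 41 (median 0.23, or 0.04 without scaling). Rps12 was the highest at 477 and 870 FPKM (1.06), and Rpl13 had 1223 and 915 (-0.23). Many of these genes have near-identical pseudogenes, so the assignment of reads to them is uncertain. Over all 80 genes the median was 0.30 in blastocysts and 0.47 in 8-cell embryos. The 76 mitochondrial ribosomal genes had 40 above 0 and a median of 0.01, with Mrpl37 at 134 and 51.7 (-1.17) and Mrpl42 at 771 and 1258 (0.90).

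Proteasome genes were lower, with 29 of 36 below 0 and a median of -0.26 (-0.45 without scaling). Of the ATPase genes of its base, Psmc5 had 288 and 110 FPKM (-1.19) and Psmc1 had 485 and 190 (-1.16), while Psmc4 had 501 and 366 (-0.26). Psmd13, a lid subunit, had 92.8 and 39.2 (-1.04). These 3 of 36 passed -1, where 2.44% of measured genes did. Of the inducible catalytic subunits of the immunoproteasome, Psmb10 had 14.9 and 23.1 (0.79), Psmb9 had 17.4 and 24.3 (0.64) and Psmb8 was listed at 0 in both libraries. In 8-cell embryos 24 of 35 lay below 0 (median -0.16).

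**Figure D5:**
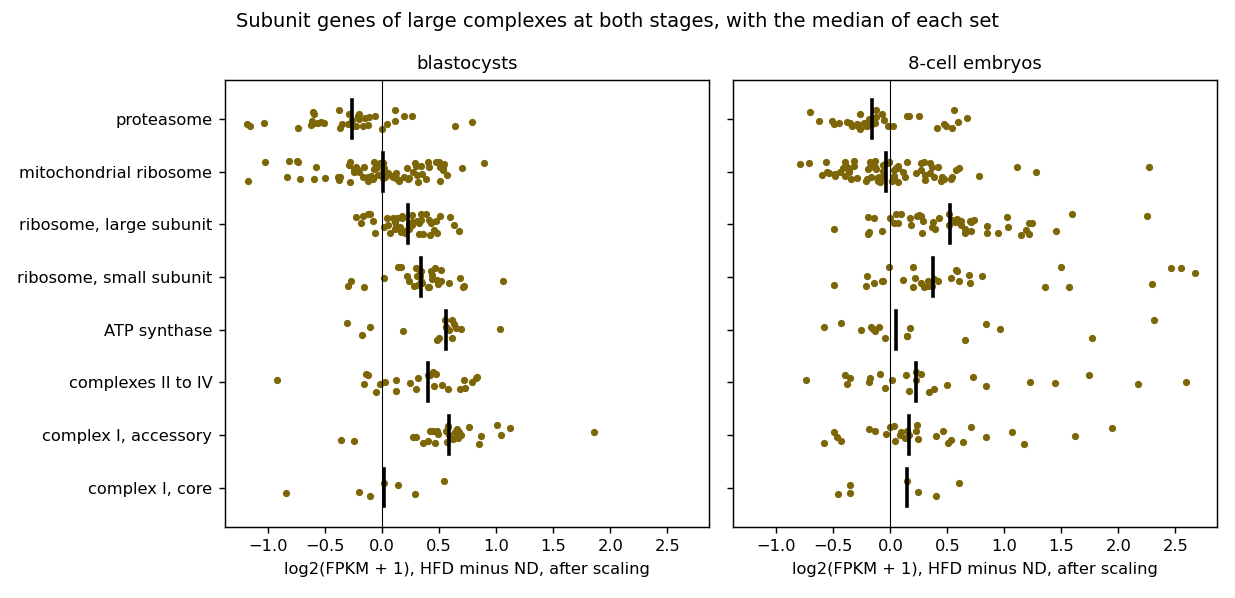
Scaled log2 differences, HFD minus ND, of subunit genes in blastocysts (left) and 8-cell embryos (right), 1 point per measured gene, with a black bar at the median. Accessory complex I genes have a median of 0.58 in blastocysts and 0.16 in 8-cell embryos, and the proteasome median lies to the left of 0 at both stages.

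Translation factors lay around the median gene as a list (25 of 47 above 0), with single members far from it. Eif5a, the factor that carries hypusine and helps ribosomes through difficult peptide bonds, had 825 FPKM in ND and 185 in HFD (-1.96). In 8-cell embryos it had 754 and 643 FPKM (0.11). Eif6, which keeps ribosomal subunits apart, had 152 and 65.7 (-1.01). Eif4h, a helper of the RNA helicase eIF4A, had 85.4 and 209 (1.47). Eef1a1, the elongation factor that delivers aminoacyl-tRNA, had 3157 and 4733 (0.77). Hypusine is made from the polyamine spermidine, and the polyamine list had 9 of 15 genes below 0 (median -0.08). Odc1, its rate-limiting enzyme, stood at 504 and 495 FPKM (0.16). Mat2a, which makes S-adenosylmethionine, had 21.5 and 8.64 (-1.05).

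Several very large differences sit at loci shared by more than 1 listed gene, where the assignment of reads between copies is uncertain. Amd1 was listed at 0.0271 FPKM in ND and 58.5 in HFD, and Amd2 at 99.9 and 9.19. Both are listed at chr10:40287458-40302188 on mm10, and their sum was 99.9 and 67.7. Gm5424 had 67.0 FPKM in ND and was listed at 0 in HFD, and Ass1, an enzyme of the urea cycle at the same locus, had 29.6 and 64.5, for sums of 96.6 and 64.5. Tgoln2 had 16.5 in ND and was listed at 0 in HFD, and Tgoln1 at the same locus had 7.31 and 9.78, for sums of 23.8 and 9.78. The antiviral genes Oas1e and Oas1f do not overlap but belong to a family of close copies. Oas1e and Oas1f had 17.1 and 4.70 FPKM (-1.50) and 3.13 and 17.2 FPKM (2.30), with sums of 20.2 and 21.9. Eif3j2, a translation factor gene with a near copy, was listed at 0 in ND and at 13.3 FPKM in HFD, and no fold is given against 0. Of the 102 higher genes 22, and of the 101 lower genes 19, had a locus that overlaps another listed gene, as did 20.2% of all measured genes.

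The cytoskeleton held some of the largest differences among abundant genes. Tmsb4x, which encodes thymosin beta 4 and binds actin monomers, had 269 FPKM in ND and 1062 in HFD (2.16). In 8-cell embryos it had 16.6 and 34.4 (1.33). Its relative Tmsb10 had 1935 and 2811 (0.73). Actg1, cytoplasmic gamma actin, had 942 and 1840 (1.15), while Actb, beta actin, had 426 and 285 (-0.39). Actb stood the other way in 8-cell embryos, at 38.8 and 220 (2.81). Cfl1, cofilin, which severs filaments, had 868 and 474 (-0.68). Rnd3, a small GTPase that loosens stress fibres, had 19 and 5.12 (-1.54). The list of 33 had 21 above 0, with a median of 0.13 that turned to -0.06 without scaling. Lgals1, galectin-1, a lectin that binds cell surface sugars, had 868 and 3869 FPKM (2.34), but 7.58 and 5.88 in 8-cell embryos. The other measured galectins did not share that size. Lgals8 had 42.2 and 19.3 (-0.91), and Lgals3, Lgals4 and Lgals9 lay between -0.11 and 0.12.

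Junction genes, which seal the trophectoderm so that the cavity can fill, were split. Of 19 measured genes 9 lay above 0 (median -0.05, or 0.23 over 28 genes with no filter on level). The claudin gene Cldn6 had 104 and 25.8 FPKM (-1.78), and Cldn7 had 70.8 and 31.6 (-0.95). Cldn4, another claudin gene, had 138 and 179 (0.56). The adherens junction genes Cdh1 (E-cadherin) and Ctnnb1 (beta-catenin) had 25.1 and 53.6 FPKM (1.25) and 73.0 and 117 FPKM (0.86). The desmosomal Dsg2 had 8.94 and 16.7 (1.01). Among proteases and their receptors, which matter for hatching and invasion, Plaur, the urokinase receptor, had 43.3 and 12.2 (-1.57). Cpn1, a carboxypeptidase subunit, had 89.4 and 23.2 (-1.72). Tmprss2, a membrane serine protease, had 6.62 and 25.7 (1.98). The protease list had 8 of 13 below 0 and a median of -0.28, which turned to 0.013 over 20 genes with no filter on level. The lysosome and endosome list had 11 of 17 below 0 and a median of -0.13. In it Rab7, a GTPase of late endosomes, had 137 and 41.4 (-1.52), and the protease gene Ctsa had 46.4 and 16.8 (-1.23).

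Genes under p53, which arrest the cell cycle or start cell death after stress, were mostly lower in the HFD pool. The p53 and cell death list had 9 of 12 genes below 0 and a median of -0.28, or -0.15 over 24 genes with no filter on level. Of 8 measured target genes, which include Cdkn1a from the cell cycle list, 7 lay below 0, with a median of -0.65. This subset was named after its values were seen. Cdkn1a, the cell cycle inhibitor p21, had 161 FPKM in ND and 48.9 in HFD (-1.52), but 66.6 and 82.7 (0.64) in 8-cell embryos. Btg2, an antiproliferative gene, had 70.9 and 25.2 (-1.27), and Mdm2, the ligase that degrades p53, 30.9 and 12.1 (-1.10). The cell death gene Bax had 446 and 311 (-0.33). Other targets of the subset lay near 0, with Ccng1 at 108 and 91.7 (-0.04) and Perp, its highest, at 74.9 and 67.0 (0.03). In 8-cell embryos the 6 measured target genes had a median of 0.02. Cell cycle genes as a list had 14 of 24 below 0 and a median of -0.02, with the replication gene Mcm2 at 26.8 and 42.9 (0.84).

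Genes of DNA methylation all lay above 0 after scaling, 7 of 7, but 3 of 7 were lower without scaling. Dnmt3b, a methyltransferase that acts after implantation, had 13.1 and 30.6 FPKM (1.35). Trim28, which keeps imprints and silences transposons, had 67.9 and 128 (1.09), and the cofactor Dnmt3l had 56.4 and 50.9 (0.04). Imprinted genes are expressed from 1 parental allele, some of them only in certain tissues, and alleles were not told apart here. Their list had 6 of 9 below 0 and a median of -0.35, but -0.026 over 31 genes with no filter on level. Phlda2, a brake on placental growth, had 84.5 and 29.1 (-1.32), and Cd81 31.6 and 9.84 (-1.41). Snrpn had 79.0 and 34.5 (-0.99), and Gnas had 50.3 and 70.4 (0.66). The major histocompatibility gene H2-K1 had 13.6 and 53 (2.06), whereas H2-D1 had 69.6 and 67.4 (0.14) and B2m, the light chain of the same complex, 154 and 115 (-0.23). The interferon-induced Ifit1, Ifit2, Ifit3, Isg15 and Usp18 were listed at 0 in both libraries.

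Remaining lists lay near the median gene or held few measured genes. Metallothionein and antioxidant genes had 11 of 18 below 0 and a median of -0.08. Mt1, a metallothionein that binds zinc, had 2623 and 3789 FPKM (0.72), and the ferritin gene Ftl1 had 7806 and 5406 (-0.34). Nutrient transporters had a median of 0.23 over 7 genes, and -0.0025 over 17 with no filter on level. Of the maternal oocyte list 3 of 29 genes were measured, with a median of -0.76, or -0.094 over 22 genes with no filter on level. They were the subcortical complex genes Khdc3 at 764 and 395 FPKM (-0.76) and Ooep at 88.3 and 88.1 (0.18), and Nlrp4c at 17.1 and 8.34 (-0.78). Id3, an inhibitor of transcription factors under BMP signalling, had 22.2 and 34.0 FPKM (0.78) in blastocysts, and 516 and 143 in 8-cell embryos (-1.51). The more abundant Id2, the other measured gene of its list in blastocysts, had 320 and 274 FPKM there (-0.03). Genes outside the lists also differed. Osr2, a transcription factor gene, had 16.9 and 3.19 FPKM (-1.93), the autophagy gene Map1lc3a 49.7 and 15.0 (-1.49) and the surface proteoglycan gene Sdc4 492 and 189 (-1.19). On the higher side, Alpl, a phosphatase of the cell surface, had 4.44 and 17.1 FPKM (1.90), and Mnd1, known for its role in meiosis, had 7.85 and 25.6 (1.76) but 10.1 and 2.24 (-1.51) in 8-cell embryos, where its mean did not reach 10 FPKM.

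Most blastocyst differences of this size were not seen at the 8-cell stage. Of 3157 genes measured at both stages, 39 were higher and 75 lower in HFD blastocysts by at least 1, and 104 were higher and 23 lower in HFD 8-cell embryos. Over all 3687 genes measured there, 3.63% were higher and 1.03% lower. Higher at both stages were 8 genes, which make up 20.5% of the 39 and 7.69% of the 104. Among them were Ndufs5 (1.86 in blastocysts and 1.95 in 8-cell embryos), Tmsb4x, the lipoprotein gene Apoc2 (1.26 and 1.26), Ly6a (1.09 and 1.47) and Ccrn4l (1.16 and 1.03). Lower at both were 2 genes, Cldn6 (-1.78 and -1.02) and Amd2 (-3.13 and -1.54), which make up 2.67% of the 75 and 8.70% of the 23. Amd1 was also among the 8 higher genes (5.95 and 1.00). It shares its listed locus with Amd2, and the assignment of reads between them is uncertain. The stages are separate embryos and share no library, and 63 of the higher and 26 of the lower blastocyst genes were not measured at the 8-cell stage.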

How the data were processed

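RNA was measured in 4 embryo libraries, of which the 2 blastocyst libraries were compared and the 2 8-cell libraries set beside them. The authors deposited 1 table per library with FPKM values, as its header states. TopHat2 2.0.8b, TopHat, Cufflinks and build mm10 are named per the submitters' processing notes. Parameters, annotation and read depth are not given in the sources used here. Of 23980 entries, 4 whose symbol occurs more than once and 10 with a failed status were left out.

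HFD values were divided, and ND values multiplied, by the square root of the median ratio over measured genes above 0 in both libraries. Then log2(FPKM + 1) was compared for genes whose mean reached 10 FPKM. No test was run. A result on a sterol synthesis gene is not reported here. Genes were named by size (the 15 largest differences per direction, list members past 1 or among the 4 most abundant, markers, and opposite differences at both stages). Other list members, the complex I core and accessory subunits and the p53 targets were named after their values were seen. The comparison and all 45 lists were chosen with earlier results of these data known. Cufflinks intervals were planned, but the tables used hold none. The counting code was tested on simulated data with set changes and less spread than these libraries. That run gives no rate of false calls for the genes counted here. Promoters are from RefSeq (GRCm38.p6), with an entry for 3194 of 4134 measured genes. Python 3.11.15, numpy 2.4.6, pandas 2.3.3 and matplotlib 3.10.9 were used.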

Additional observations from a re-analysis of the deposited data

Results flagged for a closer look

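Differences of 1 or more log2 units with opposite directions in blastocysts and 8-cell embryos were found for 4 genes, a difference between stages that was not tested. Gpx2, which encodes a glutathione peroxidase of epithelia, had 53.3 FPKM in ND blastocysts and 19 in HFD blastocysts (-1.26), and 4.85 and 20.9 FPKM in 8-cell embryos (2.20). Phlda2, an imprinted brake on placental growth, stood at -1.32 in blastocysts and at 1.06 in 8-cell embryos, where it had 167 and 276 FPKM. Hspb1, a small heat shock protein gene, had 599 and 245 FPKM in blastocysts (-1.10) and 112 and 181 in 8-cell embryos (1.02). Ppp1r14a, an inhibitor of myosin phosphatase, had 109 and 46.6 FPKM in blastocysts (-1.02) and 7.84 and 13.7 in 8-cell embryos (1.04). All 4 were lower in HFD blastocysts and higher in HFD 8-cell embryos.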

How the results depend on the processing

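Counts of genes past the threshold, higher and lower in HFD, were 102 and 101. They were 53 and 203 with no scaling, 60 and 55 with a pseudocount of 5 FPKM, 61 and 66 when means had to reach 20 FPKM, 277 and 326 with no filter, and 485 and 490 at 1.5-fold. When means from 5 FPKM on were taken, 156 were higher. Of 35 lists with at least 3 measured genes, 9 had a median of at least 0.4 in size, and 4 did with no filter. The sterol uptake and SREBP list reversed to 0.13 from 5 FPKM on and to 0.063 with no filter, where glycolysis moved to 0.026 and the maternal oocyte list to -0.094. With no filter the protease list also turned to 0.013, the junction list to 0.23, the epiblast list to 0.048 and the nutrient transporter list to -0.0025, and the imprinted list lay at -0.026. The medians of the sterol synthesis list ranged from -0.68 to -0.45, of the ER list from -0.66 to -0.37 and of the complex I list from 0.37 to 0.57 over the alternatives. Of 67 named genes past the threshold, 10 no longer passed it with no scaling, 12 with a pseudocount of 5 and 4 with upper quartile scaling, and none changed sign under these. Depth is unknown and each group is 1 pool, so the spread between pools is unmeasured. Alternatives for Cufflinks intervals were not run, as the tables used hold no intervals. No paired analysis was possible because each group compared has 1 library.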
